A study of Mus musculus with 9 samples.

Results

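The genes described here are those whose RNA stood lower 1 h after a heat pulse than both without heat and 6 h after it in cultured mouse testicular peritubular myoid cells. They were chosen from the measured values. The mean at 1 h had to lie at least 0.5 below the untreated mean and at least 0.5 below the 6 h mean on the log2(FPKM + 1) scale, the highest 1 h library had to lie below every untreated and every 6 h library, and the untreated mean had to reach 3 FPKM. FPKM is the number of fragments per length of transcript and per mapped fragments of the library, here first brought to a common library scale. Of 17559 genes with values, 9354 reached the level floor and carried no name of the form Zfp plus a number, which the rule leaves out. Of these 9354 genes, 31 met the rule and are called the dip genes below. A further 2 genes met every condition except the one on the name. The mirrored rule, with the 1 h libraries higher by as much than both other times, was met by 175 genes.

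Peritubular myoid cells are the flat contractile cells that wrap the seminiferous tubules, move sperm along them and lay down part of their basement membrane. Testes are kept cooler than the body core, and heat harms spermatogenesis. In mammalian cells a heat pulse makes the transcription factor HSF1 switch on chaperone genes such as Hspa1a, while transcription, splicing and translation of many other genes pause for a time and resume once the cells are back at their usual temperature. A gene whose RNA is short-lived can follow such a pause and resumption within hours, whereas a stable RNA hardly can. This is background from work on other cells and is no result of the present data.

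The cells were primary cells of C57BL/6J mice, grown in DMEM/F12 with 10% fetal bovine serum at 37 °C. Untreated cells (NC) received no heat, and the heated dishes spent 30 min at 42 °C in a water bath before they went back to the incubator, to be harvested 1 h (H1) or 6 h (H6) afterwards. Each group had 3 libraries of total RNA. The labels do not say whether these came from separate animals or cultures, so each p-value measures the spread between libraries, which may be technical, and the labels name no sham-handled dishes and no separate untreated group for the 6 h time. In such bulk RNA, fewer cells of a type and less RNA per cell cannot be told apart. All 12 peritubular myoid marker genes had values, and their summed level was 5010 to 6381 FPKM in NC, 4902 to 5114 FPKM in H1 and 4194 to 6167 FPKM in H6 libraries. Abundant genes such as Acta2, at 991.59 to 1627.39 FPKM over all libraries, weigh most in this sum. Other contractile markers varied more over the libraries, with Des at 11.02 to 63.7, Myh11 at 8.41 to 48.84 and Cnn1 at 18.38 to 119.39 FPKM. Macrophage markers summed to 57.71 to 108.9 FPKM in NC, 63.14 to 313.89 FPKM in H1 and 49.45 to 319.11 FPKM in H6 libraries. Leydig cell genes were also present, with Insl3 at 181 to 1607 FPKM in the NC libraries. As a check of the heat label, Hspa1a, an inducible HSP70 gene with a near-identical neighbour, had 1228, 1794 and 1513 FPKM in H1 against 10.2, 12.3 and 6.92 FPKM in NC libraries (log2 difference 7.31, SE 0.261, adjusted p 3.36e-06 with limma).

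Depth, estimated at 19000000 to 19780000 reads a library, hardly differed. The dip genes were of low to middle abundance. Their median level was 8.13 FPKM in NC, 4.02 FPKM in H1 and 8.11 FPKM in H6 (median of the gene means), beside 15.4, 13.6 and 14.6 FPKM over the 9354 genes above the floor. In NC 18 dip genes were below 10 FPKM, 7 were between 10 and 20 FPKM and 6 were above 20 FPKM. The fewest reads behind any one value were an estimated 38.2 (Ftsj2 in an H1 library), where counting alone gives an error of 16.2%, and the median value on 304 reads, where it gives 5.73%.

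Across the 31 genes the H1 level was a median 58.6% of the NC level (12.9% to 67.3%) and 56.8% of the H6 level, and the H6 level was 103% of the NC level (ratios of scaled means). The median difference was −0.67 log2 units for H1 minus NC and 0.68 for H6 minus H1, which restates the rule, beside −0.016 and −0.0092 over the genes above the floor. No overlap in both comparisons at once was met by 253 of the 9354 genes (2.7%), most of them with a smaller difference: 193 lay below 0.4 and 29 between 0.4 and 0.5. Just inside the limit stood Fkbpl, Klhl25 and Sco2, whose smaller difference was 0.52 each, and just outside it Mcat with 0.50, Abtb1 with 0.49 and Zbtb7a with 0.48. The list therefore has no natural edge at 0.5.

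**Figure D1:**
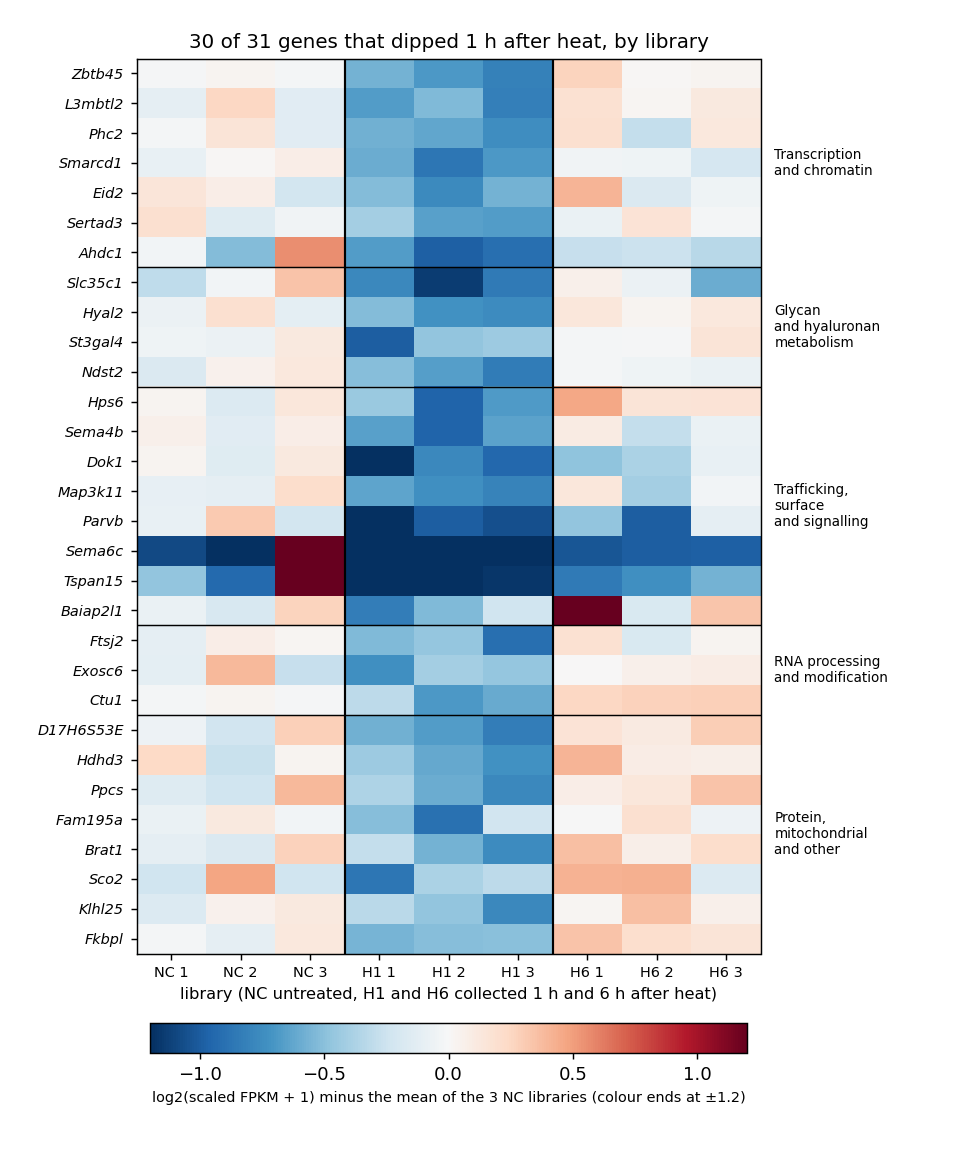
Level of 30 of the 31 dip genes in each library, as log2(scaled FPKM + 1) minus the mean of the 3 NC libraries; columns are libraries, rows are genes grouped by known role, blue is below and red above the NC mean. The 3 H1 columns are blue in every row, and the H6 columns lie near or above the NC mean in most rows, while Sema6c, Tspan15, Parvb, Ahdc1 and Dok1 stay clearly below it in H6.

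The deepest dip by the smaller of the 2 differences was that of Slc35c1, the Golgi transporter of GDP-fucose, the donor for fucosylation of glycoproteins. It had 13.8, 17.3 and 23.2 FPKM in NC, 8.80, 6.71 and 8.11 FPKM in H1 and 17.7, 15.6 and 11.6 FPKM in H6 libraries. All 3 H1 libraries lay below the other 6, and the H6 range overlapped the NC range only in part, since the lowest H6 library lay under all NC libraries. The H1 mean was 49.4% and the H6 mean 86.5% of the NC mean.

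Hps6 followed, a subunit of the BLOC-2 complex that delivers cargo to lysosome-related organelles. Its values were 5.26, 4.55 and 5.94 FPKM in NC, 3.17, 1.94 and 2.48 FPKM in H1 and 7.29, 5.49 and 6.06 FPKM in H6 libraries. D17H6S53E, for which no role is given here, had 6.27, 5.58 and 8.55 FPKM in NC, 3.68, 3.42 and 2.85 FPKM in H1 and 7.27, 6.76 and 8.60 FPKM in H6 libraries. In both genes every H6 library lay above the lowest NC library.

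The promoter-side sequences of the 4 dip genes with the deepest dips for which the start lies outside the gene's own RefSeq span are shown because genes that move together may be compared at their starts. They are the bases up to 250 before the first listed start, 5′ to 3′ on the gene's strand, without bases that an annotated exon of the same gene covers (20 for Slc35c1 and 29 for D17H6S53E), from RefSeq on GRCm38.p6, at chr2:92460539-92460768 (minus strand) for Slc35c1, chr19:46003228-46003477 (plus strand) for Hps6, chr17:35126152-35126372 (plus strand) for D17H6S53E and chr15:81663639-81663888 (plus strand) for L3mbtl2. Capitals mark every match to any of the 9 motifs searched, which are named further on.
Slc35c1: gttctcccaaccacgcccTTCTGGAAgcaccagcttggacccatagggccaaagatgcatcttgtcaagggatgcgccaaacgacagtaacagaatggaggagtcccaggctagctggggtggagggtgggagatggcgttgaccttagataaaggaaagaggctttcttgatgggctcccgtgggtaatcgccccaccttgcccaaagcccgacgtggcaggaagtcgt
Hps6: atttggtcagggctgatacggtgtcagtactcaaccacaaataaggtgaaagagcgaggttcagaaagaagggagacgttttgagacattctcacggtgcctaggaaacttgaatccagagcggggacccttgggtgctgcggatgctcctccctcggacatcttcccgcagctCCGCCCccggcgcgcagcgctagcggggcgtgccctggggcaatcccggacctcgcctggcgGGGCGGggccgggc
D17H6S53E: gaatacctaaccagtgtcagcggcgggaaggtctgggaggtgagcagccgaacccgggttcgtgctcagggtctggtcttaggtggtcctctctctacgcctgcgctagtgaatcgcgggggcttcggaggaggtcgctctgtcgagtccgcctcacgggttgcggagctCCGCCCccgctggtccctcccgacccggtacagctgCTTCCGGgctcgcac
L3mbtl2: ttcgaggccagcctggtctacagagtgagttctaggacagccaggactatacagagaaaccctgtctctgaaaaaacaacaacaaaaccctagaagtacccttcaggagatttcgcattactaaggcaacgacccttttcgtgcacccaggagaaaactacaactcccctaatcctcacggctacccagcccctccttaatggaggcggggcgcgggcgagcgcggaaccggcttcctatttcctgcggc
The capitals differ between the 4 sequences. Slc35c1 has 1 TTCNNGAA match, a tail-to-tail pair of the 3-base units of heat shock elements, 232 bases before the start. Hps6 has GGGCGG boxes, the core of the site bound by SP1, 14 bases before the start and, on the other strand, 76 bases before it. D17H6S53E has a GGGCGG box 80 bases and a CCGGAAG match, an ETS core, 44 bases before the start, both on the other strand, and L3mbtl2 has none of the motifs in these bases.

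Over the whole table, 29 of the 31 dip genes had a promoter in the RefSeq set, read from 250 bases before to 50 after the first listed start, as had 7566 of the genes above the floor. Each motif was searched on both strands, with overlapping matches allowed. TATAAA, the TATA box, was in none of the 29, against 6.53% of the promoters of genes above the floor and 14.2% of all 27025 listed promoters. CCAAT was in 13 (44.8% against 38.9% above the floor and 37.9% of all), GGGCGG in 19 (65.5% against 68.6% and 35.9%) and CCGGAAG in 5 (17.2% against 20.6% and 9.12%). The heat shock element cores GAANNTTC and TTCNNGAA were in 1 (3.45% against 5.29% and 7.95%) and 3 (10.3% against 6.78% and 8.40%). CACGTG was in 2 (6.90% against 11% and 7.24%), and TGACGTCA and a motif of the factor NRF1, given here by its name, were in none (3.45% and 11.8% of genes above the floor, 1.88% and 4.78% of all). Among 29 promoters 1 gene makes 3.45%, and none of these shares is read as particular to the dip genes.

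Genes of transcription and chromatin made up a group of 7, with H1 levels at 48.5% to 62.6% of NC. Zbtb45, a zinc-finger protein with a BTB domain, had 5.36, 5.68 and 5.49 FPKM in NC, 3.01, 2.71 and 2.33 FPKM in H1 and 6.56, 5.16 and 5.74 FPKM in H6 libraries. The H1 libraries stood far from the rest, and the gap between the highest of them and the lowest of the others, 0.54 log2 units, was the widest of all 31 genes. Its profile over the 9 libraries was also the closest to the mean profile of the dip genes (Pearson r = 0.97, a description, since the gene helps to set that mean).

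L3mbtl2, a reader protein of a Polycomb complex, had 5.15, 7.01 and 5.21 FPKM in NC, 2.87, 3.28 and 2.42 FPKM in H1 and 6.35, 5.41 and 6.38 FPKM in H6 libraries. Phc2, a polyhomeotic subunit of Polycomb repressive complex 1, was the most abundant of the group, with 35.6, 41.0 and 33.9 FPKM in NC, 21.6, 21.1 and 18.6 FPKM in H1 and 40.3, 27.8 and 40.6 FPKM in H6 libraries. Smarcd1, a BAF60 subunit of SWI/SNF remodelling complexes, had 7.43, 8.19 and 8.78 FPKM in NC, 4.45, 3.57 and 4 FPKM in H1 and 7.49, 7.22 and 7.02 FPKM in H6 libraries. In all 3 genes the H6 and NC ranges overlapped, in Smarcd1 only at the low end of the NC range.

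Eid2, an inhibitor of differentiation that binds histone acetyltransferases, had 14.7, 14.3 and 11.6 FPKM in NC, 8.06, 6.73 and 7.55 FPKM in H1 and 17.5, 10.9 and 13.1 FPKM in H6 libraries. Sertad3, a transcriptional coregulator with a SERTA domain, averaged 5.47 ± 0.73 FPKM in NC, 2.94 ± 0.43 FPKM in H1 and 5.35 ± 0.46 FPKM in H6 (SD, n = 3 each). Ahdc1, which encodes an AT-hook DNA-binding protein, was the most uneven of these 7 genes in NC, at 10.1, 7.01 and 16.3 FPKM, and had 5.52, 4.31 and 4.44 FPKM in H1 and 8.13, 7.97 and 8.27 FPKM in H6 libraries. Its 3 H6 values lay close together, inside the NC range.

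Most genes of the same families were not dip genes. Of 103 genes above the floor on a list of chromatin remodelling and reader genes, L3mbtl2, Phc2 and Smarcd1 were dip genes (2.91%, against 0.331% of all genes above the floor), and 5 had H1 below both other groups with no overlap (4.85% against 2.7%). The list's median H1 minus NC difference was −0.078, beside −0.016 over all genes above the floor. Of 28 BTB zinc-finger genes 1 was a dip gene, Zbtb45 (3.57% against 0.331%), and 3 had no overlap (10.7% against 2.7%). Of 85 histone- and DNA-modifying enzymes none was a dip gene, and 3 had no overlap (3.53% against 2.7%). These shares rest on 5 genes or fewer per list. Of the dip genes 5 (16.1%) carried a transcription factor family in the deposited annotation, against 13.8% of the genes above the floor.

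The second group acts on glycans and hyaluronan and holds 4 genes, Slc35c1 among them. Hyal2, a cell-surface hyaluronidase, had 9.26, 11.5 and 9.26 FPKM in NC, 5.88, 5.02 and 4.73 FPKM in H1 and 10.6, 9.44 and 11.1 FPKM in H6 libraries. St3gal4, a sialyltransferase that caps galactose ends of glycans, had 20.89, 20.99 and 24.53 FPKM in NC, 9.43, 13.98 and 13.87 FPKM in H1 and 20.7, 20.2 and 25.1 FPKM in H6 libraries. Ndst2, which starts the sulphation of heparan sulphate and heparin chains, had 6.17, 7.51 and 8.13 FPKM in NC, 4.25, 3.74 and 3.10 FPKM in H1 and 6.76, 6.43 and 6.88 FPKM in H6 libraries. In these 3 genes the H6 and NC ranges overlapped, and no H1 library reached either.

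**Figure D2:**
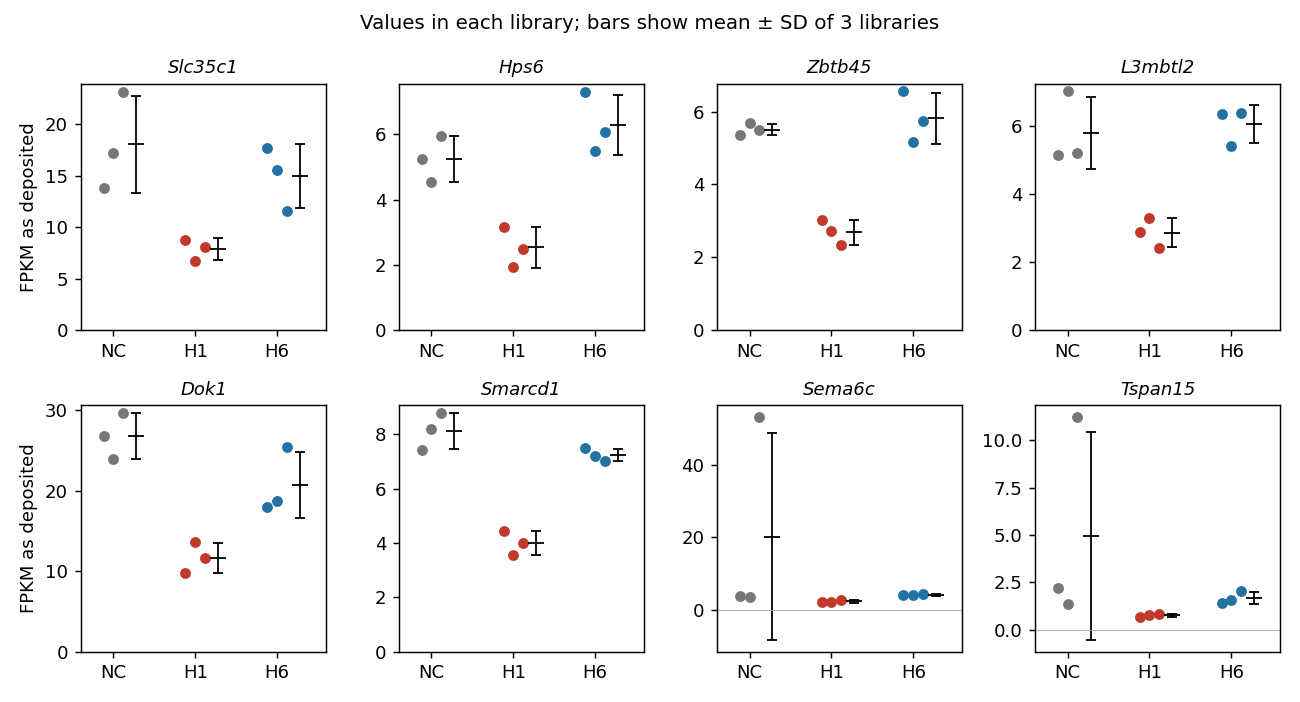
FPKM as deposited in each library of 8 dip genes, NC, H1 and H6 from left to right; dots are libraries and the bar beside them is the mean ± SD of 3. The H1 dots lie below all others in each panel, and in Sema6c and Tspan15 a single NC library (53.3 and 11.3 FPKM) sets the NC mean.

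Trafficking, surface and signalling genes formed the least uniform group, 8 genes with H1 levels at 12.9% to 67.3% of NC and H6 levels at 21.2% to 154% of NC. Sema4b, a transmembrane semaphorin and the most abundant dip gene, had 45.29, 40 and 47.53 FPKM in NC, 24.69, 19.96 and 24.12 FPKM in H1 and 45.4, 33.4 and 42.4 FPKM in H6 libraries. Its 3 H1 libraries lay well below the rest, and the second H6 library was the lowest of its group.

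Dok1, a docking protein that dampens signalling of tyrosine kinases, had 26.8, 24.0 and 29.6 FPKM in NC, 9.82, 13.6 and 11.6 FPKM in H1 and 18.02, 18.73 and 25.45 FPKM in H6 libraries. Its H6 mean was 79.9% of the NC mean, and 2 of the 3 H6 libraries lay below every NC library. Map3k11, the mixed-lineage kinase MLK3 upstream of JNK, had 9.04, 9.15 and 11.9 FPKM in NC, 5.37, 4.99 and 4.53 FPKM in H1 and 10.5, 6.70 and 9.85 FPKM in H6 libraries. Parvb, an actin-binding partner of integrin-linked kinase, had 4.58, 6.47 and 4.22 FPKM in NC, 1.26, 1.80 and 1.61 FPKM in H1 and 3.17, 1.86 and 4.63 FPKM in H6 libraries. Its highest H1 and lowest H6 library were nearly level, 0.003 log2 units apart after scaling, and its H6 mean was 64.8% of the NC mean.

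Sema6c, another transmembrane semaphorin, and Tspan15, a tetraspanin that partners the sheddase ADAM10, had large H1 minus NC differences that rest on 1 library. Sema6c had 3.85, 3.33 and 53.3 FPKM in NC, 2.03, 2 and 2.77 FPKM in H1 and 3.91, 3.94 and 4.33 FPKM in H6 libraries. Tspan15 had 2.19, 1.34 and 11.3 FPKM in NC, 0.65, 0.77 and 0.84 FPKM in H1 and 1.42, 1.56 and 2.06 FPKM in H6 libraries, and passed the level floor only through the third NC library. Without that library neither gene met the rule, nor did Baiap2l1, Brat1, Fkbpl, Klhl25 and Ppcs. The same library had the highest summed level of 11 Sertoli cell markers, 3149 FPKM against 584 FPKM or less in the other 8, led by Clu at 2700 FPKM and Cldn11 at 237 FPKM. Sox9, Wt1 and Dhh were also highest there, at 27.7, 53.8 and 7.18 FPKM, while Amh and Fshr were below 1 FPKM in all 9 libraries. The part of these markers in the 2 values was not tested.

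Baiap2l1, which bends membranes and binds actin through its I-BAR domain, closes the group. It had 14.5, 13.5 and 19.4 FPKM in NC, 7.41, 9.40 and 11.3 FPKM in H1 and 37.4, 12.6 and 20.1 FPKM in H6 libraries. The first H6 library was by far the highest of the 9, and the other two lay near the ends of the NC range.

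Of the 3 genes of RNA processing, Ftsj2 encodes the mitochondrial rRNA methyltransferase now named Mrm2. It had 3.49, 4.17 and 4.06 FPKM in NC, 2.12, 2.27 and 1.38 FPKM in H1 and 4.37, 3.07 and 4.05 FPKM in H6 libraries. Ctu1, a subunit of the enzyme that thiolates the wobble uridine of certain tRNAs, had 3.06, 3.27 and 3.20 FPKM in NC, 2.09, 1.41 and 1.5 FPKM in H1 and 3.79, 3.77 and 4.16 FPKM in H6 libraries. Exosc6, a ring subunit of the RNA exosome, had 11.9, 17.6 and 10.9 FPKM in NC, 6.67, 8.65 and 8 FPKM in H1 and 12.7, 12.7 and 14.3 FPKM in H6 libraries. The single exon of Exosc6 lies over its whole 1326 bp inside an exon of Aars on the same strand, so reads there can belong to either gene; Aars itself had a different course, with an H1 minus NC difference of 0.21.

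The remaining 8 genes have mixed roles, and their scaled H6 mean was above the NC mean in each, at 104% to 120% of it. Fkbpl, an FKBP-like protein that binds HSP90, had 6.75, 6.38 and 7.89 FPKM in NC, 3.93, 4.12 and 4.01 FPKM in H1 and 8.74, 7.60 and 7.98 FPKM in H6 libraries. Hdhd3, a protein with a haloacid-dehalogenase-like domain, had 6.68, 4.46 and 5.83 FPKM in NC, 3.44, 2.96 and 2.56 FPKM in H1 and 7.43, 5.58 and 6.00 FPKM in H6 libraries. Klhl25, an adaptor of cullin-3 ubiquitin ligases, had 4.69, 5.70 and 6.12 FPKM in NC, 3.71, 3.28 and 2.40 FPKM in H1 and 5.33, 6.76 and 5.85 FPKM in H6 libraries. It was the single dip gene among 251 ubiquitin ligase and deubiquitinase genes above the floor, a share of 0.398% near the 0.331% of all genes above the floor. The H1 values of Fkbpl hardly varied, with an SD of 0.095 FPKM, whereas those of Klhl25 came within 1 FPKM of the lowest NC library.

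Brat1, which binds BRCA1 and activates the damage kinase ATM, averaged 6.04 ± 1.34 FPKM in NC, 3.38 ± 0.75 FPKM in H1 and 6.88 ± 0.93 FPKM in H6 (SD, n = 3 each). Ppcs, an enzyme of coenzyme A synthesis, averaged 7.92 ± 2.37 FPKM in NC, 4.30 ± 0.78 FPKM in H1 and 8.65 ± 1.33 FPKM in H6. Fam195a, now named Mcrip2, averaged 9.98 ± 0.86 FPKM in NC, 5.83 ± 1.42 FPKM in H1 and 9.95 ± 0.65 FPKM in H6. Sco2, a copper chaperone of cytochrome oxidase, had 7.22, 12.7 and 7.52 FPKM in NC, 3.89, 5.89 and 6.01 FPKM in H1 and 11.6, 11.4 and 7.93 FPKM in H6 libraries, and shares 829 bp with Ncaph2 on the opposite strand and 535 bp with Tymp on the same strand. Whether the counting used strand is not given in the sources used here, so reads of Sco2 and of these neighbours cannot be told apart with certainty. Ncaph2, at 20.84 to 34.95 FPKM in NC, had an H1 minus NC difference of −0.068. Other dip genes also share exon bases with genes on the opposite strand. Among them are Smarcd1 with Gm17349 (287 bp), L3mbtl2 with Chadl (111 bp), Baiap2l1 with Bri3 (49 bp) and Ftsj2 with Nudt1 (39 bp). Bri3 went the same way as Baiap2l1, with −0.27 for H1 minus NC and 0.39 for H6 minus H1. Chadl had an H1 minus NC difference of 0.11 and Nudt1 one of −0.091. The part of shared reads in any dip was not tested.

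**Figure D3:**
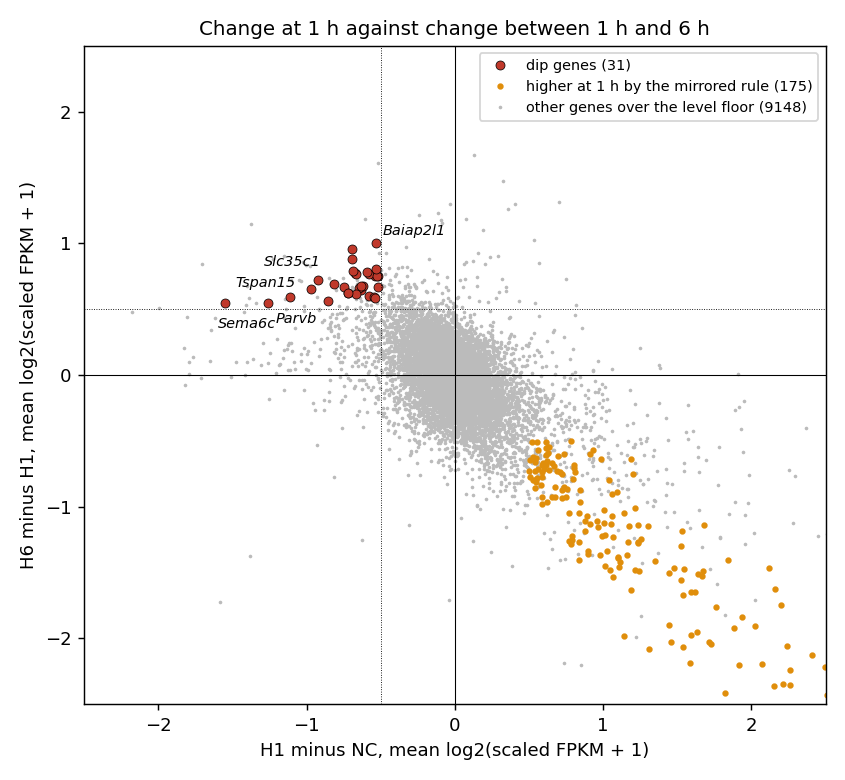
H1 minus NC against H6 minus H1, as mean log2(scaled FPKM + 1), for the genes above the level floor; red dots are the 31 dip genes, orange dots the 175 genes higher at 1 h by the mirrored rule, grey dots the rest, dotted lines the limits of 0.5, and 31 genes lie outside the plotted range. The dip genes sit at the edge of the grey cloud in the upper left, and far fewer genes lie there than in the lower right.

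The H6 against NC comparison is the one whose size the rule did not set, although it required both groups to lie above H1. The H6 mean was above the NC mean in 20 dip genes and below it in 11, beside 47.3% of the genes above the floor with the H6 mean above. The median difference was 0.045 log2 units (−0.999 to 0.473), beside −0.017, and 20 of the 31 lay within 0.2 and 28 within 0.5 of NC. With limma on all 9 libraries, 0 dip genes passed an adjusted p of 0.05 in either direction (smallest adjusted p 0.889), as did 0 of the 11460 genes tested (0.0%), and 0 dip genes had an unadjusted p under 0.05 against 4.43% of genes tested. An adjusted p of this size does not show that the 2 groups were alike. That smallest adjusted p was shared by several dip genes. Before adjustment the smallest p with limma was 0.0579, for Parvb, whose H6 minus NC difference was −0.52 with a standard error of 0.241.

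After scaling, all 3 H6 libraries lay above all 3 NC libraries in 3 dip genes, Ctu1, Fkbpl and Hps6, against 2.89% of the genes above the floor. On the deposited values this held for Ctu1 alone, since the ranges of Fkbpl and Hps6 overlap slightly there. The H6 mean was 127% of NC in Ctu1, 120% in Fkbpl and 124% in Hps6. In 0 dip genes did all H6 libraries lie below all NC libraries, against 4.34% of the genes above the floor. At the other end, the H6 mean stayed furthest below NC in Sema6c (21.2%), Tspan15 (35.6%) and Parvb (64.8%), and the first 2 of these rest on the third NC library.

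The H6 libraries of the dip genes also lay close together. The median SD over 3 libraries was 0.14 log2 units in H6, beside 0.27 for genes above the floor, 0.17 beside 0.14 in H1 and 0.17 beside 0.23 in NC. The rule asked H6 and NC to lie wholly above H1 and so favours genes with a small spread, which makes these values a description. Within H1 the first library was the highest of its group in 18 dip genes (58.1%, against 32.7% of the genes above the floor) and the third the lowest in 14 (45.2% against 36.8%). Within NC the third library was the highest in 17 (54.8% against 37.6%) and the second the lowest in 15 (48.4% against 30.6%). Within H6 the first library was the highest in 16 (51.6% against 40.1%) and the second the lowest in 14 (45.2% against 42.5%).

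In the 2 comparisons the rule used, the test is given as a description. With limma, 0 dip genes passed an adjusted p of 0.05 at 1 h (0.0% of 11460 genes were called lower and 0.227% higher), with Dok1 nearest at 0.0579, and 0 passed for H6 against H1 (0.0% were called higher and 0.358% lower), with Fkbpl nearest at 0.0562. At an unadjusted p under 0.05 with limma, 28 dip genes were lower in H1 than in NC, where 2.3% of genes tested were, and 29 were higher in H6 than in H1, where 3.85% were. No overlap with H1 below NC was met by 6.77% of the genes above the floor, and with H6 above H1 by 9.22%. To the authors' deposited table, which used DEGseq, 2 limits were applied, a q-value no higher than 0.001 and a fold of 2 or more. Past both, 14 dip genes were lower in H1 than in NC (4.33% of genes with a value there) and 12 were higher in H6 than in H1 (2.48%). For H6 against NC 2 were lower (3.44%) and 0 were higher (3.01%). On the scaled means used here, 6 dip genes were lower in H1 than in NC by a fold of 2 or more. DEGseq and limma are different tests, so their counts are not compared.

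**Figure D4:**
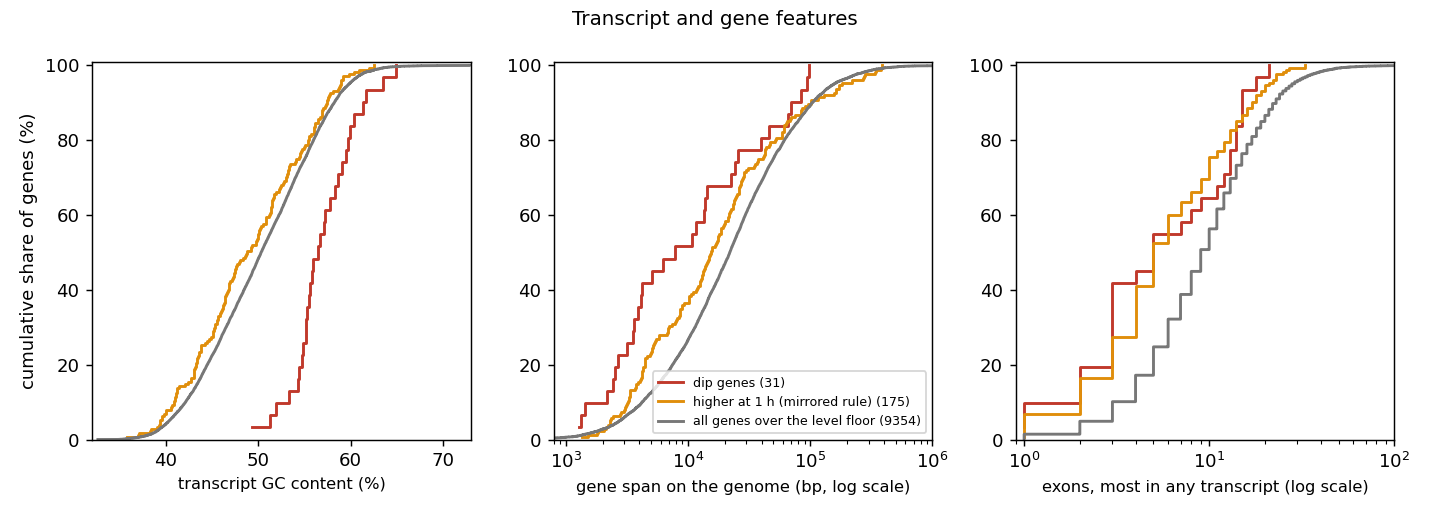
Cumulative share of genes by transcript GC content, gene span and number of exons, for the 31 dip genes (red), the 175 genes higher at 1 h by the mirrored rule (orange) and all genes above the level floor (grey). The red line lies to the right of the other lines for GC content and to the left of the grey line for span and exons.

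The dip genes shared features that the rule did not use, but GC content and span also went with such dips over all genes above the floor. Their transcripts were rich in G and C, with a median of 56.4% against 50.3% over the genes above the floor and 48.8% for the genes higher at 1 h, and 23 of 31 (74.2%) exceeded 55% GC against 25.1% of the genes above the floor. The lowest were Baiap2l1 at 49.3% and Tspan15 at 51.2%, and the highest Exosc6 at 64.9% and Sema6c at 63.5%. Coding sequences alone gave 57.9% against 52.9%, whereas promoters hardly differed, at 62.7% against 61.7%. No dip gene lay in the lower 2 of 5 equal bins of transcript GC, 3 lay in the third, 12 in the fourth and 16 in the fifth.

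Over the genes above the floor, the median H1 minus NC difference went with GC content as well, at 0.028, −0.0013, −0.013, −0.041 and −0.071 log2 units from the lowest to the highest GC bin, and that of H6 minus H1 at −0.16, −0.088, −0.0019, 0.071 and 0.11. In the same order, 0.27%, 0.86%, 2.3%, 3.6% and 6.5% of genes had H1 below both other groups with no overlap. Set against the median of its own GC bin, the H1 minus NC difference of the dip genes had a median of −0.62 and was −0.45 or lower in each gene, and the H6 minus H1 difference had a median of 0.57 and was at least 0.43. The rule asked for 0.5 in both differences and the bin medians were small, so these bounds follow from the choice of genes. With each library centred within 20 bins of GC content, an alternative chosen after the data were seen, 20 of the 31 genes kept the rule and 22 genes met it in all. The part of GC content in the choice of genes was not tested.

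Dip genes were also short and had few exons. The median span was 7755 bp against 21947 bp, and 13 of 31 (41.9%) spanned less than 5000 bp against 12.5%. Hps6, Eid2 and Exosc6 have a single exon in all their annotated coding transcripts (9.68% against 1.44%), and Hdhd3, Sertad3 and Fkbpl have 2 at most. The genes higher at 1 h were close to the dip genes in exons, with a median of 5 in both sets against 9 over the genes above the floor, 6.86% with a single exon and 16.6% with at most 2 (19.4% of the dip genes and 4.89% of the genes above the floor). Their median span was 15314 bp, and 22.9% of them spanned less than 5000 bp. Long genes were present too, with Phc2 at 98180 bp and Baiap2l1, Parvb, St3gal4 and Ahdc1 over 50000 bp. In the bin of shortest spans, which held 15 dip genes, the median H6 minus H1 difference of all genes above the floor was 0.13, and in the bin of longest spans −0.16. H1 lay below both other groups with no overlap in 5.5% of genes in the shortest bin and 0.86% in the longest. Span thus went with the later difference and with such dips across the table, and GC content and span were not separated. The 3′ UTRs of dip genes had a median length of 859 bases against 1100, and 17 (54.8%) held at least 1 ATTTA, the core of AU-rich elements that shorten the life of RNA, against 69.2% of the genes above the floor and 90.3% of the genes higher at 1 h.

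**Figure D5:**
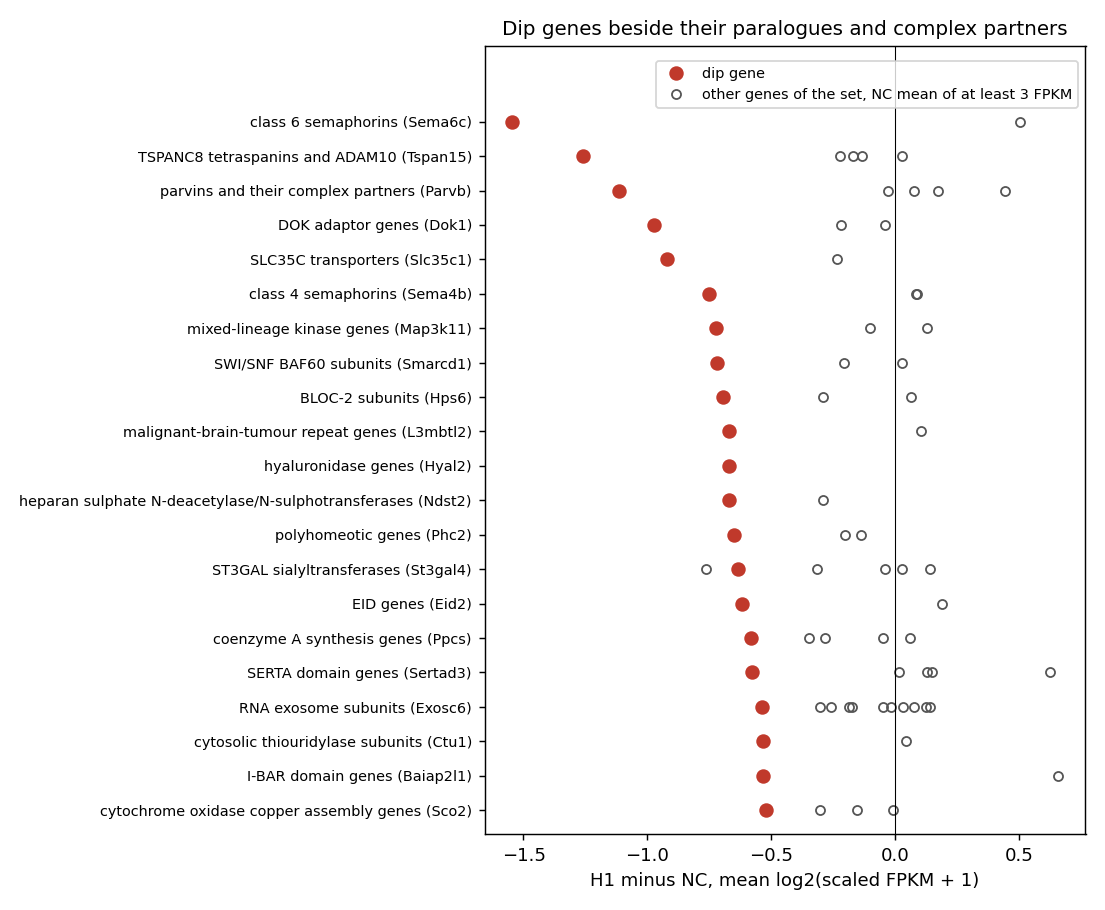
H1 minus NC, as mean log2(scaled FPKM + 1), of the dip gene (red) and of its paralogues or complex partners with an NC mean of at least 3 FPKM (open circles) in 21 sets; the hyaluronidase set has no such partner. The red dot is the leftmost in each set except the sialyltransferases, where St3gal5 lies at −0.76. The choice of the dip genes by their low H1 values favours this order.

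Relatives and partners of the dip genes mostly had smaller differences. Each dip gene was picked for its low H1 values and its relatives were not, so a weaker course in them follows in part from the choice. In 21 sets of paralogues or subunits of the same complex, chosen after the dip genes were known, 53 other genes reached the level floor. Their median H1 minus NC difference was −0.018 and their median H6 minus H1 difference −0.016. Exosc4 and Slc35c2, 3.77% of the 53, had H1 below both other groups with no overlap, a share near the 2.7% of all genes above the floor. The other BLOC-2 subunits, Hps3 and Hps5, had H1 minus NC differences of −0.29 and 0.064 against −0.70 for Hps6. The kindred BAF60 subunits Smarcd2 and Smarcd3 had −0.20 and 0.027 against −0.72 for Smarcd1, and the polyhomeotic genes Phc1 and Phc3 had −0.14 and −0.20 against −0.65 for Phc2.

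In several sets the dip gene was the minor one. Parva had 105, 93.5 and 82.2 FPKM in H1 against 103, 83.9 and 115 FPKM in NC libraries, far above Parvb in each. Ctu2, the partner of Ctu1, differed by 0.045 between H1 and NC. Sertad1 of the SERTA family had 36.6, 27.5 and 29.8 FPKM in H1 against 27.3, 25.8 and 15.9 FPKM in NC libraries, a difference of 0.63 in the opposite direction to Sertad3. St3gal5 was lower at 1 h, with a difference of −0.76, but also lower at 6 h than in NC, by −0.67, and so did not meet the rule.

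None of the 31 dip genes was on the lists of heat-shock chaperones, immediate early genes, cytosolic ribosomal proteins, p53 targets, DNA repair genes, cell cycle regulators or circadian clock genes, or on any of the marker lists of the 5 cell types. Of all genes above the floor 0.331% were dip genes, so lists of this size would mostly hold none at that share. The rule also leaves out genes that rose at 1 h. The 28 chaperone genes above the floor had a median H1 minus NC difference of 1.17 and the 26 immediate early genes one of 1.75. Of the 31 lists, 28 held no dip gene. The lists are not complete, since the one of solute carriers lacks Slc35c1 and the one of mRNA decay genes lacks Exosc6. The count is therefore no measure of absence from those families. The dip genes lay on 13 chromosomes, with 6 on chromosome 7, 5 on chromosome 4 and 4 on chromosome 15, and the closest pair, Ftsj2 and Brat1, lay 373 kb apart on chromosome 5.

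By likeness of the profile over 9 libraries to the mean profile of the dip genes, the closest genes outside the list were Zfp710 (Pearson r = 0.96), which the rule left out by name, Nrde2 and Tmem101 (0.95 each), Zbtb3 (0.95) and Mblac1 (0.94). Zfp710 had 3.31, 3.03 and 4.62 FPKM in NC, 1.99, 1.78 and 1.80 FPKM in H1 and 4.18, 3.17 and 3.65 FPKM in H6 libraries. Nrde2 had 3.36, 3.93 and 3.61 FPKM in NC, 2.05, 2.22 and 1.97 FPKM in H1 and 3.81, 3.01 and 3.36 FPKM in H6 libraries, a course like that of Zbtb45 with a smaller difference of 0.42. Among the dip genes Sema6c (0.51), Tspan15 (0.60) and Sco2 (0.66) were the least like the mean profile.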

How the data were processed

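RNA of 9 libraries was compared. Per the file headers, the authors deposited FPKM values per gene and library together with their own log2 fold changes, p-values and q-values from DEGseq. The authors' cluster membership scores from Mfuzz, named in the file headers, were not used. Tools listed in the submitters' processing notes are RSEM 1.2.12, HISAT2 2.0.4 and Bowtie2 2.2.5, with build mm10 and no roles given. FPKM are shares of a library, so large gains elsewhere lower a gene's value. Each library was therefore divided by its median ratio to the gene-wise geometric mean (0.917 to 0.952 for H1, 0.981 to 1.07 for H6, 1.04 to 1.08 for NC), and log2(FPKM + 1) was taken, which understates changes of low genes. Values printed per library are as deposited; differences and percentages use scaled values.

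The 11460 genes that reached 1 FPKM in 3 or more libraries were tested with limma 3.58.1 in R 4.3.3 (variance trend, 3 group means, two-sided, Benjamini-Hochberg), checked on simulated data. Depth was estimated from low values, of which 87.7% to 91.7% lay within 0.2 of a whole read (40% by chance), too few to recover reads gene by gene, so no count test was run; counting errors cover counting alone.

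The genes named were the first 15 by dip, up to 4 per gene list, the 5 most abundant, the extremes of H6 against NC, those next to the limit, the 5 closest other genes and Hspa1a; the remaining dip genes, partners and overlapping genes were added with their values seen. Of the 31 dip genes 1 is counted in the totals and not reported here by itself. Members and lists were chosen with earlier results of these data known. Features come from GENCODE M21, matched by NCBI gene identifier, using the longest coding transcript (the most exons of any). Same-numbered H1 and NC libraries deviated together (correlations 0.194, 0.147 and 0.258, all above 0.1). Those of H6 and H1 deviated in opposite directions (−0.269, −0.102 and −0.35), and those of H6 and NC gave −0.178, 0.0442 and 0.0219. Since correlations of this size had either sign, they do not show whether same-numbered libraries belong together. The main limma fit used no pairing, and the replicate number entered as a block only as an alternative. Alternatives covered scaling, pseudocount, filter, libraries, a replicate block and GC centring.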

Additional observations from a re-analysis of the deposited data

Results flagged for a closer look

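In Ctu1, Fkbpl and Hps6 every H1 library lay below all NC libraries, as the rule required, and after scaling every H6 library lay above them. The 2 times after heat thus stood on opposite sides of the untreated cells. All H6 libraries lay above all NC libraries in 2.89% of the genes above the floor. The H6 minus NC difference was 0.27 log2 units in Ctu1, 0.23 in Fkbpl and 0.26 in Hps6. With limma its unadjusted p was 0.097, 0.113 and 0.179 in this order, and the adjusted p was 0.889 in each. Whether the H1 and H6 differences differ was not tested, since the choice of these genes required it. Leaving the libraries unscaled kept the order in 1 of the 3, and centring by GC content in 0.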

How the results depend on the processing

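The count of genes meeting the rule, 31, depended on the settings: it was 105 without scaling, 54 with a pseudocount of 0.1, 73 without NC 3 and H6 2 together, 30 to 66 without any one library, 13 with a floor of 10 FPKM and 0 with a dip of at least 1. Without scaling the median H1 minus NC difference of all genes tested was −0.17. Of the 31 genes, 30 kept the rule under quantile normalization (Sco2 lost it), 20 with GC centring (added after the data were seen), 24 to 31 without any one library and 24 without NC 3 and H6 2, and 12 kept it under every one of the 14 settings, among them D17H6S53E, Dok1, Eid2, Hps6, Hyal2, L3mbtl2, Ndst2, Sema4b, Slc35c1, Smarcd1 and Zbtb45. The median H6 minus NC difference of the 31 ranged over −0.024 to 0.10. Of 952 recomputed differences of single dip genes 30 moved by more than 1 SD and 0 H1 differences changed sign. The rule had placed every H1 library below all NC and all H6 libraries. Leaving out libraries could therefore hardly turn a sign, and this 0 follows largely from the choice of genes.

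Dip genes above NC at H6 with no overlap, 3, numbered 1 without scaling, 0 with GC centring, 10 without NC 3 and H6 2, and 3 to 8 without any one library. Those below, 0, numbered 2 without NC 3 and H6 2 and 0 to 3 without any one library. For all genes with limma, the 26 called higher at H1 than NC became 84 with these 2 groups alone, 45 without NC 3 and H6 2, and 11 to 66 without any one library. The 0 called lower became 3 with no filter, 1 with the 2 groups alone (Dok1), 1 without NC 3 and H6 2 and 0 to 2 without any one library. For H6 against H1, 0 called higher became 1 with no filter, 2 with a floor of 3 FPKM, 6 with quantile normalization and 0 to 32 without any one library (32 without H6 1), and 41 called lower became 21 to 91. Dip genes called there, 0, numbered 1 with the floor of 3 FPKM (Fkbpl), 5 with quantile normalization (Ctu1, D17H6S53E, Fkbpl, Hps6 and Zbtb45) and 0 to 1 without any one library. For H6 against NC, 0 called higher became 23 without H6 1, with 0 to 23 over single libraries. The cause of these shifts was not tested. With the replicate number as a block, 20 genes were called higher and 0 lower at H1, 31 lower and 0 higher at H6 against H1 and 0 at H6 against NC; 0 dip genes were called (smallest adjusted p with limma 0.14 at H1 against NC, 0.105 at H6 against H1 and 0.926 at H6 against NC), and no other call changed side.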
